A study of Drosophila melanogaster with 4 samples.

Results

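The Enhancer of split complex, E(spl), is a group of neighbouring genes on chromosome arm 3R of Drosophila melanogaster and a classic set of direct Notch targets in the fly. The data described here are the binding sites of Suppressor of Hairless, Su(H), across that locus. Peaks were taken from the deposited list where they lie on 3R and overlap 21810000 to 21880000 (FlyBase release 5) by at least 1 bp. This gave 36 of the 14384 peaks in the list, and 36 of the 3608 peaks on 3R. The study used chromatin immunoprecipitation followed by sequencing (ChIP-seq) in Kc167, an established female cell line that came from late-stage embryos and has the genotype se/e. There were 3 ChIP libraries with a rabbit polyclonal antibody against residues 259 to 594 of Su(H), and 1 library of input DNA, which is sheared chromatin without immunoprecipitation. Cells of all 4 libraries were fixed with 1.8% formaldehyde for 15 minutes, and the labels name no treatment that activates or blocks Notch. The authors deposited 1 peak list for the series, with no value per library, so none of the values below has a replicate error. How deeply each library was sequenced is unknown.

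Su(H) is the DNA-binding protein at the end of the Notch pathway. When a ligand activates Notch, the intracellular part of the receptor enters the nucleus and joins Su(H) and the coactivator Mastermind on target enhancers. Without that signal Su(H) can hold the corepressor Hairless, which brings in Groucho, so its presence on DNA does not by itself tell activation from repression. The E(spl) genes are switched on by Notch in many fly tissues, where they keep cells from taking the neural fate.

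The complex holds 2 kinds of Notch-regulated gene. Of the 9 genes considered here, 7 encode basic helix-loop-helix (HLH) repressors that bind DNA and recruit Groucho: E(spl)mdelta-HLH, E(spl)mgamma-HLH, E(spl)mbeta-HLH, E(spl)m3-HLH, E(spl)m5-HLH, E(spl)m7-HLH and E(spl)m8-HLH. The other 2, E(spl)malpha-BFM and E(spl)m4-BFM, encode small Bearded-family proteins, which interact with the ubiquitin ligase Neuralized and so limit signalling by the ligand Delta. All 9 were found in a RefSeq gene table of assembly release 6, in the order mdelta, mgamma, mbeta, malpha, m3, m4, m5, m7 and m8. From E(spl)mdelta-HLH to E(spl)m8-HLH that table lists 18 genes. The 9 others comprise 6 long noncoding RNAs and 3 coding genes: Kaz-m1, which carries a Kazal-type protease inhibitor domain, and the Bearded-family genes E(spl)m2-BFM and E(spl)m6-BFM. The gene that follows E(spl)m8-HLH is gro, which encodes Groucho itself. The peaks are placed in release 5, so which peak lies at which gene was not analysed here, and no value below belongs to a single gene. That the window is the E(spl) complex rests on the stated coordinates.

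Su(H) binding in the complex consisted of a few high, wide peaks among many low ones that were mostly narrower. Only 4 of the 36 peaks (11.1%) were strong, meaning a score among the highest 10% of the list (106.82 or above). On the whole of 3R 9.12% of peaks were strong, so the share of strong peaks in the complex was close to that of its arm. The 4 strong peaks had a median width of 3275 bp and the other 32 a median of 438 bp, against 401 bp for the peaks of 3R that were not strong. Over all peaks the median width was 519 bp in the complex and 436 bp on 3R. Another 10 peaks (27.8%) lay between the median score of the list, 16.1, and the limit for strong peaks. The remaining 22 (61.1%) were weak, at or below that median, against 56.6% of the peaks on 3R. The median score in the complex was 13.9, against 14.9 on 3R, and its scores ran from 9.51 to 629.79. With the complex shortened by 10 kb at both ends, which leaves 20 peaks, the median was 18.7 and thus above that of 3R.

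**Figure D1:**
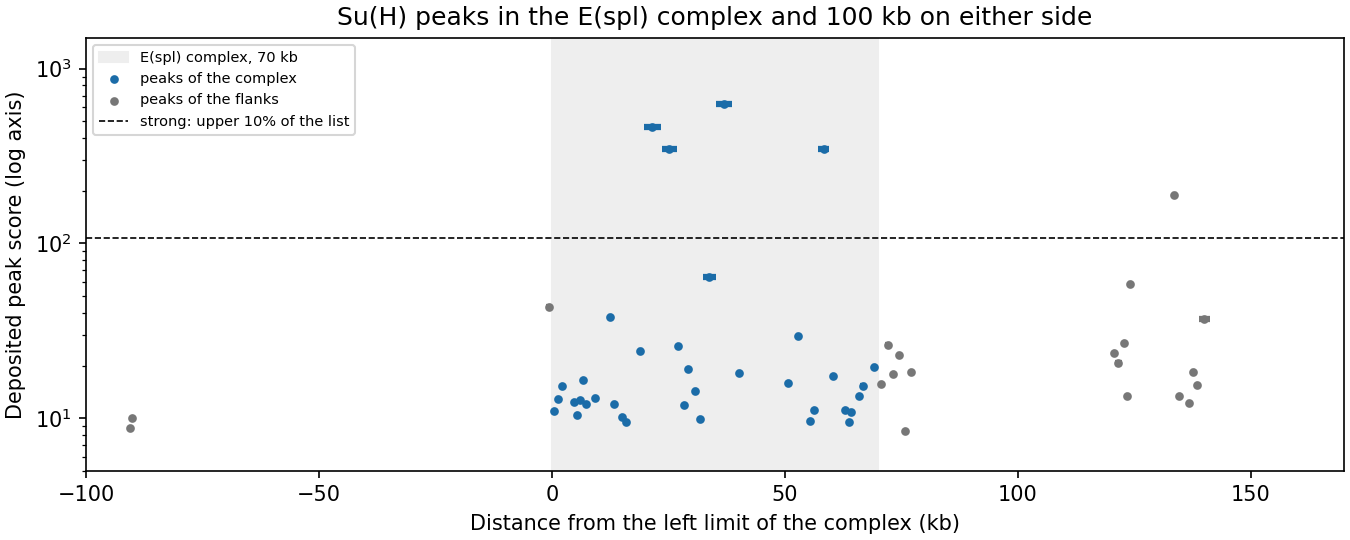
Su(H) peaks of the E(spl) complex (blue, grey background) and of the 100 kb on either side (grey points), by distance in kb from the left limit of the complex and by deposited score on a log axis; points are peak midpoints, bars peak widths and the dashed line the limit for strong peaks. The 4 strong peaks of the complex score between 344.33 and 629.79, and the flanks hold 1 strong peak, at 187.89.

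The highest peak lay on 3R from 21845297 to 21848624, near the middle of the complex. Its score of 629.79 ranked 26 among the 3608 peaks of 3R and 103 among all 14384, within the highest 0.716% of the list. It was 3328 bp wide. The second, from 21829712 to 21833487, had a score of 460.67 (rank 67 on 3R, 264 in the list). At 3776 bp it was the widest peak of the complex. These 2 peaks lay on either side of another strong peak.

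That peak, from 21833543 to 21836764, scored 344.33 (rank 122 on 3R) and was 3222 bp wide. It began 55 bp after the end of the second-highest peak, close to the shortest gap of 50 bp found on 3R. Together the pair formed a nearly unbroken enriched stretch. Of the 43 cases on 3R in which a strong peak had a strong peak as its direct neighbour, 8 (18.6%) had a gap under 100 bp. Whether such a pair is a single site divided by the peak caller was not tested.

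The last of the 4 strong peaks stood apart on the right side of the complex, from 21867227 to 21869473. Its score of 348.53 (rank 121 on 3R) was close to that of the right member of this pair, but it was narrower, at 2247 bp. From left to right, the midpoints of the strong peaks were 3.55 kb, 11.8 kb and 21.4 kb apart. No other peak lay between the left pair, while 6 lower peaks lay between that pair and the highest peak, and 5 between the highest and the rightmost.

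The 4 strong peaks covered 12.6 kb, or 40.5% of the sequence that peaks covered in the complex, and held 76.8% of the summed score. On 3R as a whole, strong peaks held 33.4% of the covered sequence and 63.2% of the summed score. Their widths lay within the range of other strong peaks of similar score. Other strong peaks of 3R with a score within 1.25 times that of the highest peak numbered 46, with a median width of 3775 bp and a range of 1791 to 9095 bp. For the widest peak of the complex, 65 such peaks had a median of 3075 bp, and for the narrowest of the 4, 86 had a median of 2710.5 bp. On 3R the median width was 2388 bp for strong peaks and 401 bp for the others, so width and score are not independent measures.

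**Figure D2:**
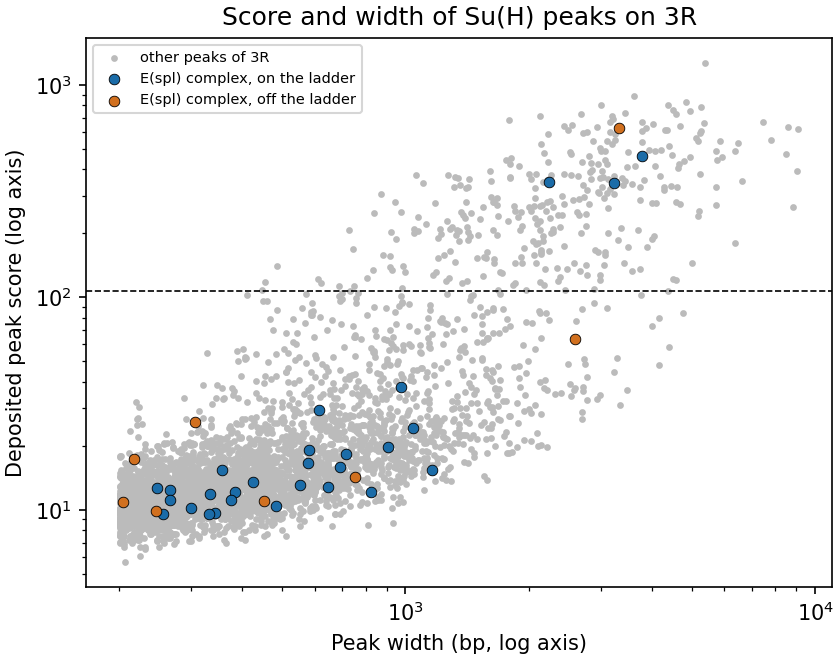
Width in bp against deposited score, both on log axes, for the peaks of 3R (grey) and the 36 peaks of the E(spl) complex (coloured by whether the score lies on the ladder described in the text); the dashed line is the limit for strong peaks. The peaks of the complex lie within the ranges of score and width of the arm. The peak with a score of 63.93 is the widest of the complex below the dashed line.

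Among the lower peaks, the one with the highest score was also the widest. It lay from 21842544 to 21845139, just left of the highest peak and 157 bp from it, with a score of 63.93 and a width of 2596 bp. Of the 3279 peaks of 3R that were not strong, 26 (0.793%) were as wide, this peak included. Those 3279 peaks were not matched to it by score, and their median score was 14.06. Whether it is wide for its score was not tested. The next lower scores were 38.02 (21821954 to 21822931, 978 bp), 29.61 (21862481 to 21863096, 616 bp), 26.01 (21836862 to 21837168, 307 bp) and 24.14 (21828428 to 21829468, 1041 bp). The peaks with scores of 24.14 and 26.01 flanked the left pair of strong peaks, at gaps of 243 bp and 97 bp. All other peaks of the complex scored below 20: they ranged from 9.51 to 19.64 and from 204 to 1158 bp in width. In the upper part of these, the peaks scored 19.64, 19.16, 18.23, 17.32 and 16.63, and none was wider than 905 bp.

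The scale of the score is not stated with the file and was read from its values. Many peaks shared the same scores, and all 92 scores that at least 25 peaks shared (below 40) lay within 0.015 of the −log10 Poisson tail of a whole fragment count against a background mean of 195.927. That mean was chosen to bring as many scores as possible onto such values, so this match is not separate support for the scale. A peak lies on this ladder when its score is within 0.0075 of such a value. Over the whole list, 32.4% of peaks were off it. The count that gives a score, divided by the background, is a fold over background, and it is an upper limit for peaks off the ladder, which may have been scored against a higher local background. In the complex the highest peak reached at most 6.87-fold, the left pair at most 5.80-fold and 4.99-fold, and the rightmost strong peak at most 5.02-fold. The median over the 36 peaks was at most 1.59-fold, and 6 peaks (16.7%) could reach 2-fold, against 17.7% on 3R. The highest score on 3R was 1270.81, against 629.79 in the complex, so by score the E(spl) sites were not the highest on their arm. That peak of 3R could reach 10.4-fold, but values that can be upper limits do not order peaks by fold.

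**Figure D3:**
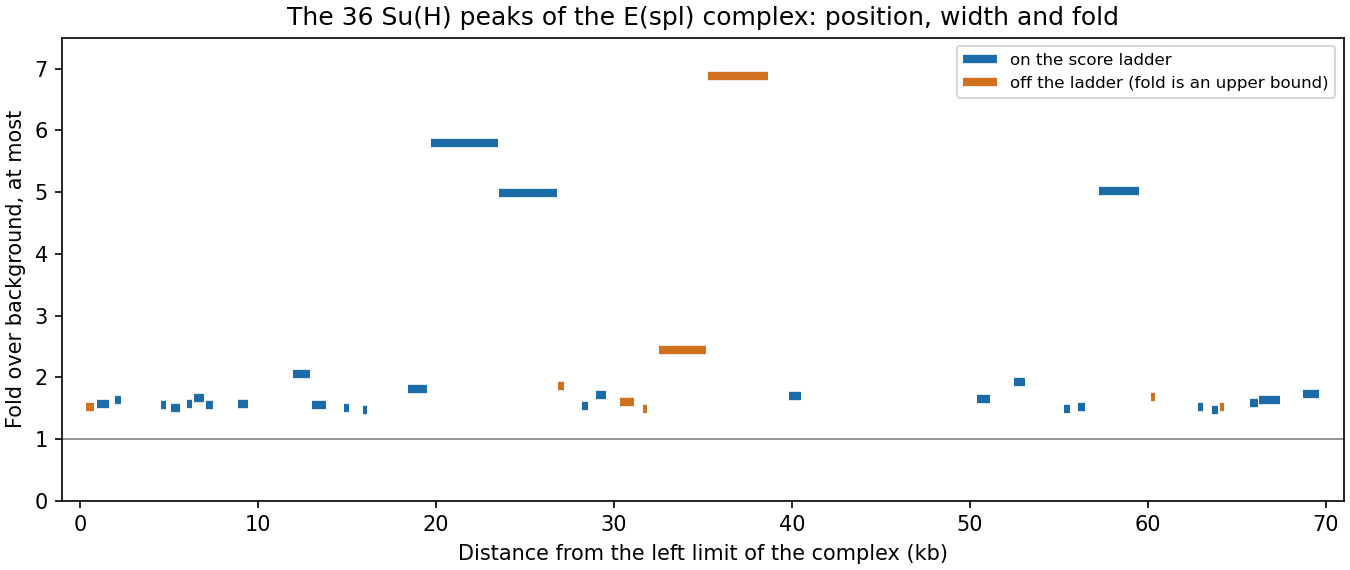
Fold over background (at most) of the 36 peaks of the E(spl) complex against distance in kb from its left limit; each bar spans a peak's width, orange bars are off the score ladder and the grey line marks a fold of 1. The 4 strong peaks lie between 4.99 and 6.87, and 31 of the others lie below 2.1.

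Of the 36 peaks, 8 (22.2%) were off the ladder, against 23.1% on 3R. They included the highest peak, so its fold of 6.87 is an upper limit, while the other 3 strong peaks were on it. Of the 8, 4 were consecutive and spanned 8.28 kb, from 21840346 to 21848624, and this stretch ended with the highest peak. Elsewhere in the complex 4 of 32 peaks were off the ladder. On 3R, 39 runs of 4 or more consecutive peaks off the ladder held 389 peaks (10.8%). Whether the local input level differed in this stretch was not tested.

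Neighbouring peaks of the complex were about as close as those of the arm in the median, and more of them nearly touched. The median gap was 674 bp, against 736 bp on 3R, and 23 of the 35 gaps (65.7%) were under 1 kb, against 56.7% on 3R. Gaps under 100 bp numbered 6 (17.1%), and 9.43% of neighbouring peaks on 3R lay that close. Joining peaks less than 1 kb apart left 13 blocks, of which 5 were single peaks and 3 held a strong peak. The longest block ran from 21838182 to 21848624 (10.4 kb, 6 peaks) and ended with the highest peak. It ranked 42 in length among the 1563 blocks of 3R, whose median length was 982 bp. The block with the left pair of strong peaks ran from 21828428 to 21837168 (8.74 kb, 4 peaks) and ranked 65, and peaks covered 95.5% of it. The block of the rightmost strong peak was 5.11 kb long and ranked 178.

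The widest gap within the complex separated the blocks around the highest peak from the right side. It ran from 21850518 to 21860404, a length of 9.89 kb, and 12.5% of the gaps on 3R were as long. Counted by midpoint in steps of 10 kb from the left limit, the complex held 9, 5, 5, 4, 1, 5 and 7 peaks. Strong peaks had their midpoints in the steps that begin 20 kb (2 peaks), 30 kb (1 peak) and 50 kb (1 peak) from the left limit. The covered sequence in these steps was 3.97, 3.69, 7.93, 7.12, 0.518, 4.27 and 3.51 kb. Peaks were thus most numerous in the first and last of these steps, where no score exceeded 19.64. They covered most sequence in the steps from 20 to 40 kb. The first and last steps are the ends of the stated coordinates, and their place relative to the genes was not analysed.

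The complex stood within an island of peaks. To its left no peak was listed from 21720040 to 21808737, a stretch of 88.7 kb that ranked 60 among the 3607 gaps of 3R. To its right none was listed from 21887205 to 21930402, a stretch of 43.2 kb that ranked 165. Between them lay 43 peaks over 78.5 kb, of which peaks covered 46.0%. With islands defined as runs of peaks without a gap of 20 kb or more, a limit chosen after the values were seen, 3R had 303 islands, with a median of 5 peaks. The E(spl) island ranked 16 by number of peaks and 33 by length. It had the same limits with a gap of 10 kb or 40 kb, but its ranks depended on that choice. With 10 kb it ranked 10 by number of peaks and 11 by length among 450 islands. With 40 kb it ranked 23 and 59 among 176. The 7 peaks of the island outside the coordinates of the complex were all below the limit for strong peaks. The nearest on the left (21808738 to 21809913) ended 87 bp outside the limit and scored 43.21, and the first inside scored 10.95. The nearest on the right (21880261 to 21881074) began 261 bp outside and scored 15.78, and the last inside scored 19.64. The limits of the complex therefore cut through a continuous group of peaks.

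Compared with 100 kb on either side, the complex had more peaks and more covered sequence. It held 51.4 peaks per 100 kb, against 10.0 in the flanks (20 peaks), a ratio of 5.14 (exact 95% interval 2.90 to 9.38, for counting error with peaks taken as independent). Many peaks lay within 1 kb of the next, so that assumption is doubtful for all these intervals. After peaks less than 1 kb apart were merged, the ratio was 9.29 (2.87 to 39.1). With the upper 50% of scores it was 3.33 (1.43 to 7.89). Peaks covered 44.3% of the complex and 7.19% of the flanks, a ratio of 6.16. The flanks were unlike each other, and the ratio of covered shares was 26.98 with the left flank and 3.48 with the right. The left one held 3 peaks with scores up to 43.21, which gives a density ratio of 17.1 (5.42 to 87.0). The right one held 17, a ratio of 3.03 (1.66 to 5.74). Of the 20 flank peaks, 7 belonged to the same island as the complex, the one with a score of 43.21 among them. The flanks held 1 strong peak, on the right from 21943178 to 21944123, 63.2 kb from the complex, with a score of 187.89, a width of 946 bp and a fold of at most 3.74. The median score was 10.0 in the left flank and 18.5 in the right, with 13.9 in the complex between them. With the complex shortened by 10 kb at both ends, its median was 18.7.

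The complex was then set beside all windows of 70 kb on 3R, taken every 10 kb, with those that overlap it left out. There were 2768 such windows, and 482 (17.4%) held no peak. Neighbouring windows share most of their peaks, so shares of windows are descriptions of the arm and not tests. The complex, with 36 peaks, stood against a median of 6 per window, and 48 windows (1.73%) had as many or more. With 31.0 kb covered, against a median of 3.90 kb, it was matched by 29 windows (1.05%). Its summed score of 2320.59 was reached by 35 windows (1.26%). Its 4 strong peaks compared with a median of 0, and 3.43% of windows had as many. By its highest score the complex stood less far out: 170 windows (6.14%) had a peak as high, and the median window had a highest score of 96.3. With only the upper 50% of scores, the complex held 14 peaks, 5.71% of windows had as many and 2.71% as much covered sequence, so part of its rank by number rested on weak peaks. After peaks less than 1 kb apart were merged, 2.999% of windows had as many peaks.

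**Figure D4:**
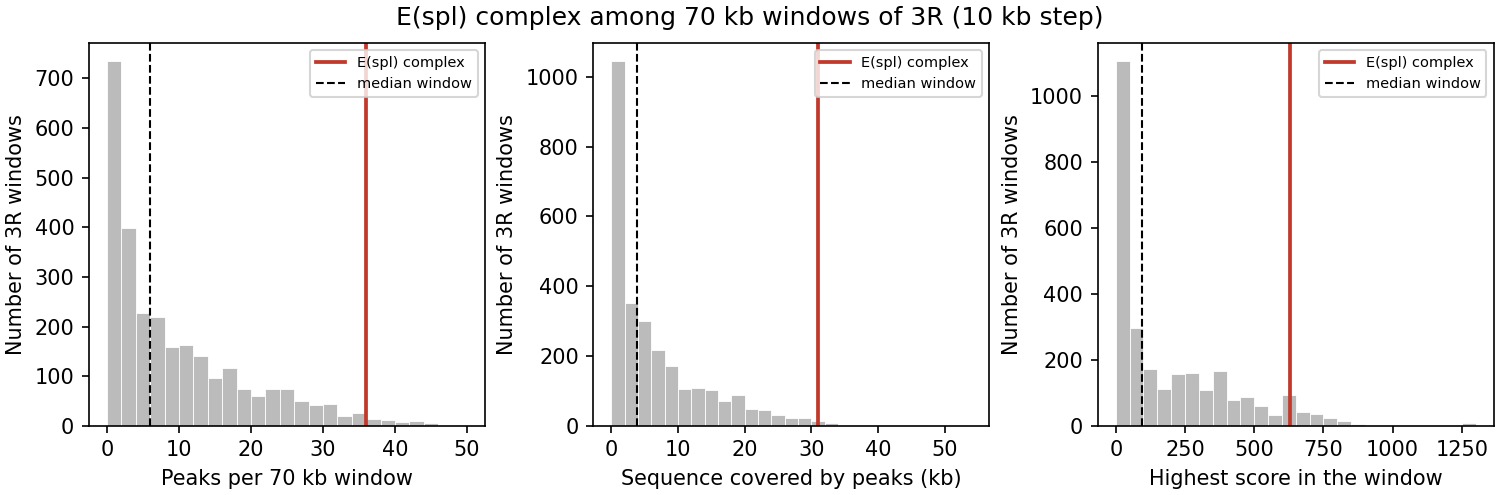
Distribution of 2768 windows of 70 kb on 3R (10 kb step) by number of peaks, by sequence covered in kb and by highest score; the red line is the E(spl) complex and the dashed line the median window. The complex lies at 36 peaks, 31.0 kb and 629.79, against medians of 6, 3.90 kb and 96.3.

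Overlapping windows often show the same stretch of the arm. The 48 windows with as many peaks fell into 17 separate stretches, the 29 with as much covered sequence into 9, and the 170 with as high a peak into 19. Only 6 windows equalled or exceeded the complex in number of peaks, covered sequence and highest score together. These lay in 2 stretches, from 5320000 to 5420000 (100 kb, 59 peaks, 5 strong, highest score 889.03) and from 25560000 to 25640000 (80 kb, 48 peaks, 2 strong, highest score 782.88). Genes there were not analysed here. Among the 59 windows with 33 to 39 peaks, the median highest score was 415.55, the median covered sequence 23.9 kb and the median number of strong peaks 2. Of these 59, 7 (11.9%) had as high a peak as the complex, 8 (13.6%) as much covered sequence and 7 as many strong peaks.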

How the data were processed

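All values come from 1 peak list that covers the series. Its positions are in FlyBase release 5 and its source is MACS, per the file headers. The authors deposited a start, an end and a score for each peak. BWA, MACS2 and CASAVA (1.7.0.2, 1.7.0.3) are named, without roles, per the submitters' processing notes, which give BDGP5 as the genome build. The peak threshold, and which ChIP libraries were used for calling, are not given in these labels or headers.

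The score ladder was fitted on all peaks. A run on scores simulated from the same model checked only that the fit recovers a known background mean. It cannot show that the deposited score follows that model. The fold divides the smallest count in the Poisson tail by the fitted background. Windows were taken from position 0 up to the last peak of 3R (27898030). No test was made, because the list has no replicates, and intervals of density ratios are exact binomial. The members, limits and comparisons were chosen with earlier results of these data known. All 9 genes were named by rule, and peaks by score (the upper part of the complex), by width or by place at a limit. Assignment of peaks to genes and motif searches were planned and not run: no release 5 genome or annotation and no promoter sequences were used here, and coordinates were not converted. Alternatives kept the upper 50% of scores, merged peaks, placed peaks by midpoint, or changed the windows, the limits or the flanks. Python 3.11.15, NumPy 2.4.6, SciPy 1.17.1, pandas 2.3.3 and matplotlib 3.10.9 were used.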

Additional observations from a re-analysis of the deposited data

How the results depend on the processing

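With the upper 50% of scores the complex held 14 peaks, covered 21.1 kb and had a median score of 27.8. By number of peaks 5.71% of windows were then as high, and by covered sequence 2.71%. After merging peaks less than 1 kb apart, it held 13 peaks over 40.6 kb with a median score of 26.2, and 2.999% of windows had as many. Shortened by 10 kb at both ends, it held 20 peaks over 23.5 kb with a median score of 18.7 and the same number of strong peaks. With the 394 windows that do not overlap each other, 1.27% (5 windows) had as many peaks and 0.508% (2 windows) as much covered sequence. Shares from so few windows are imprecise. Among windows with at least 1 peak, 7.44% had as high a score. The left flank alone gave a density ratio of 17.1. The ratio of covered shares was 26.98 with the left flank, 3.48 with the right, 6.67 with flanks of 200 kb, 5.80 after merging and 5.36 with the upper 50% of scores. The cause was not tested, beyond fewer peaks, shorter limits or fewer windows by construction. The shortened window's median of 18.7 lay above that of 3R (14.9) and slightly above that of both flanks together (18.5). The median of the whole complex, 13.9, lay below both, though above the 10.0 of the left flank alone. No density or coverage ratio turned. Of the 55 alternatives, the other 34 stayed within the limits set for each value, but these were wide for density ratios. Against 5.14, ratios of 9.29 after merging, 7.09 with flanks of 200 kb, 3.33 with the upper 50% of scores and 3.03 with the right flank stayed within them. So did 3 strong peaks after merging, against 4. The 2 alternatives on motifs were not run. No paired analysis was possible because peaks carry no separate values for the libraries, and for that reason no replicate could be left out. Depth is unknown.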
